A study of Homo sapiens with 12 samples.

Results

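The mitochondrial chaperones and proteases described here are 10 nuclear genes whose products fold, refold or degrade proteins inside mitochondria. They were chosen by name as genes of the mitochondrial unfolded protein response, and each was found once among the 36601 genes of the expression table. All 10 passed the filter on low values and were among the 15376 genes tested. KP4, an established human pancreatic cancer cell line, was treated for 24 h with 1 of 4 regimens, and 3 libraries per treatment were sequenced. Control cells received the vehicle (DMSO), and the other cells received 10 mM metformin (Met), 5 nM FK866 (FK) or both (Met+FK). Metformin inhibits complex I of the respiratory chain, and FK866 inhibits NAMPT, the rate-limiting enzyme that rebuilds NAD from nicotinamide. All 4 groups are the same line, for which the labels give no engineered allele, and the results hold for 1 cell line at 1 time and 1 dose of each drug. The labels number the libraries of each treatment 1 to 3 and do not say whether these came from separate cultures, so the p-values measure the spread between these libraries, which may be technical.

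The mitochondrial matrix holds its own folding machinery. HSPD1 (Hsp60) forms a barrel in which proteins fold, and HSPE1 (Hsp10) is the lid that closes it. HSPA9 (mortalin, the mitochondrial Hsp70) pulls proteins in through the inner membrane and folds them, and GRPEL1 is the factor that exchanges its nucleotide. TRAP1 is the mitochondrial Hsp90. LONP1 and the pair CLPX and CLPP are ATP-dependent proteases of the matrix, in which CLPX unfolds the substrate and CLPP cuts it. YME1L1 and AFG3L2 are proteases anchored in the inner membrane, the first with its active site towards the intermembrane space and the second towards the matrix. When misfolded proteins accumulate in mitochondria, cells can raise the expression of such genes, a program called the mitochondrial unfolded protein response. In mammals it runs at least in part through the integrated stress response and transcription factors such as ATF4, DDIT3 (CHOP) and ATF5.

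Libraries held between 30667735 and 41052203 read pairs (median 34767232), and the 10 genes took 0.247% to 0.313% of the read pairs in the 6 libraries without metformin and 0.308% to 0.348% in the 6 with it. Values are normalized counts, the read pairs of a gene divided by 1 size factor per library. Of 8 ductal epithelial markers, 6 had a mean of at least 10 normalized counts. CFTR was at 0 in every library, EPCAM averaged 8.93, and KRT19 averaged 33.7. None of 4 acinar and none of 4 endocrine markers reached a mean of 10, while 2 of 4 fibroblast markers (COL1A1 and PDGFRB), 1 of 3 endothelial markers (VWF) and 2 of 3 leukocyte markers (PTPRC and CD68) did. DCN was at 0 throughout and CD3E had a mean of 0.0845. The summed normalized count of the ductal markers moved with treatment, from 25301 to 26242 with DMSO to 19349 to 22853 with FK, 16465 to 19625 with Met and 16172 to 19611 with Met+FK. Fibroblast markers summed to 139 to 203 with DMSO, 239.7 to 315 with FK, 79.4 to 112 with Met and 90.9 to 114 with Met+FK. Endothelial markers summed to 42.4 to 56.3, 46.2 to 54.0, 21.9 to 35.5 and 28.2 to 39.0 in the same order, and leukocyte markers to 1101 to 1243, 949 to 1034, 915 to 974 and 955 to 1004. The part of these shifts in the results was not tested. RNA came from whole cultures, so a shift in the share of cells that express a gene and a shift in its RNA per cell cannot be told apart.

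HSPD1 and HSPE1 stand head to head on chromosome 2, and their transcripts responded differently to metformin. HSPA9 and LONP1, a chaperone and a protease, were 2 of the 3 members that rose with it. Their promoters are therefore shown, as the 250 bases before the start of the canonical transcript in RefSeq (GRCh38.p14), 5′ to 3′ on the strand of the gene. Windows were found for 7 of the 10 genes, and none for GRPEL1, CLPP and YME1L1. Capitals mark matches, on either strand, to the motifs searched.
HSPD1 (chr2:197499841-197500090, minus strand): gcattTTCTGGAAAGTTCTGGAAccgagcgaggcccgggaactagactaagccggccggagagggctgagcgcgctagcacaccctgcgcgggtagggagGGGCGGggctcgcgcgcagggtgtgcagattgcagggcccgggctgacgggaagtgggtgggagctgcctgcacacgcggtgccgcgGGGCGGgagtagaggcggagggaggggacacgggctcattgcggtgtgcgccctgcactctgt
HSPE1 (chr2:197500129-197500378, plus strand): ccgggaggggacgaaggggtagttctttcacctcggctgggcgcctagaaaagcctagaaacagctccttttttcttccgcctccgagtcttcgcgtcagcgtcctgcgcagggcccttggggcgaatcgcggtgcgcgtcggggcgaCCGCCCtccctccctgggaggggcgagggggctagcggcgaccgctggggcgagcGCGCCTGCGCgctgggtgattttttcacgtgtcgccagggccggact
HSPA9 (chr5:138575402-138575651, minus strand): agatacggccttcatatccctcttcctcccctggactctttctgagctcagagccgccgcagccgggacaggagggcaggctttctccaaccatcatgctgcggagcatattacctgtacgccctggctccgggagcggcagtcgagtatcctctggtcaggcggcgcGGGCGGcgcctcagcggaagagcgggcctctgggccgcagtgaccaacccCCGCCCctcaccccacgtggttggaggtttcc
LONP1 (chr19:5720147-5720396, minus strand): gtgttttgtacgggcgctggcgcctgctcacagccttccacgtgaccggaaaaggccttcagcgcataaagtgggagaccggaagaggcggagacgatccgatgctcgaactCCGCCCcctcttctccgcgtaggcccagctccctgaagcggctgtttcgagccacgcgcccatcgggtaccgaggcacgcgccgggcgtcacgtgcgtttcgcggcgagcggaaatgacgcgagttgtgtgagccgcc
The starts of HSPD1 and HSPE1 lie 539 bases apart. In HSPD1 the capitals at the far end are 3 overlapping matches to the heat shock element, of which 2 have the letters TTCNNGAA and 1 the letters GAANNTTC, beginning 245, 240 and 235 bases before the start. Those letters occur in 6.62% and 5.80% of the 34943 promoter windows in the RefSeq table, searched over the same 250 bases, and in none of the stretches of HSPE1, HSPA9 and LONP1. The HSPD1 matches lie between the starts of HSPD1 and HSPE1, outside the 250 bases searched for HSPE1, which begin at 197500129. HSPE1 has 1 match to the 10-letter NRF1 site (5.04% of windows). GC boxes, GGGCGG or its reverse complement CCGCCC, number 2 in HSPD1, 1 in HSPE1, 2 in HSPA9 and 1 in LONP1, and occur in 42.5% of windows. The C/EBP-ATF response element TGATGNAA, found in 3.15% of windows, has no match in any of these 4 stretches, and the cAMP response element TGACGTCA (1.63% of windows) has none either. HSPD1 and LONP1 each have 2 starts in the RefSeq table, of which 1 is shown. Before its other start, HSPD1 has 1 NRF1 site and no heat shock element, and LONP1 has 1 NRF1 site. Among the genes whose windows are not printed, TRAP1 has 1 cAMP response element, 94 bases before its start. CLPX has 1 NRF1 site, 90 bases before its start, and AFG3L2 has neither motif. A match is a description of letters and not of a site in use.

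The genes lie on 8 chromosomes (positions on hg38 as in the deposited table, counted from 1). HSPD1 (ENSG00000144381) spans chr2:197486584-197516737 on the minus strand and HSPE1 (ENSG00000115541) chr2:197500140-197503449 on the plus strand. HSPA9 (ENSG00000113013) lies at chr5:138553756-138575416 (minus), GRPEL1 (ENSG00000109519) at chr4:7058895-7068064 (minus), and TRAP1 (ENSG00000126602) at chr16:3651639-3717553 (minus). On chromosome 19, LONP1 (ENSG00000196365) lies at chr19:5691834-5720572 (minus) and CLPP (ENSG00000125656) at chr19:6361531-6370242 (plus). CLPX (ENSG00000166855) lies at chr15:65148219-65185342 (minus), YME1L1 (ENSG00000136758) at chr10:27110112-27155266 (minus), and AFG3L2 (ENSG00000141385) at chr18:12328944-12377314 (minus). Exons of some genes overlap those of a neighbour on the other strand. HSPD1 and HSPE1 share 135 exonic bases, TRAP1 shares 1477 with DNASE1, AFG3L2 shares 837 with TUBB6, YME1L1 shares 443 with MASTL, and LONP1 shares 42 with RPL36. The sources used here do not state the strand setting of the counting, so reads from these stretches cannot be assigned to one gene with certainty. HSPD1 and HSPE1 also have processed pseudogene copies elsewhere in the genome, among which reads may be split.

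Per kilobase of the canonical transcript, in DMSO libraries, the 10 genes spanned a wide range of levels. HSPD1 stood highest, at 12106 ± 1529 normalized counts per kilobase (SD, n = 3), followed by its lid HSPE1 at 8694 ± 750 and by HSPA9 at 7226 ± 333. TRAP1 came next at 3307 ± 114. These chaperones, the barrel and its lid and the mitochondrial Hsp70 and Hsp90, thus lay above every protease. LONP1 was at 1586 ± 85.2, AFG3L2 at 1439 ± 78.3, YME1L1 at 1012 ± 146, GRPEL1 at 980.0 ± 41.8, CLPP at 960 ± 60.6 and CLPX, last, at 572 ± 47.9. The ranges of neighbours in this order did not overlap, except those of YME1L1 with GRPEL1 and of GRPEL1 with CLPP.

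Metformin alone moved the members in both directions, which is the first comparison the design implies. HSPA9, YME1L1 and LONP1 rose against DMSO, and HSPE1, GRPEL1, TRAP1 and CLPP fell, by limma-trend over all genes tested with Benjamini-Hochberg adjusted p-values under 0.05. HSPD1, CLPX and AFG3L2 did not pass. Thus 7 of 10 members were called, where 50.9% of all genes tested were. Of these members, 3 were higher (24.9% of all genes were) and 4 lower (25.9% of all genes were). HSPA9 and HSPE1 also changed more than 1.5-fold, a size that with the adjusted p makes a DEG, as 23.0% of all genes did. On the log2 scale the members' median change was −0.10, and that of all genes tested 0.012.

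**Figure D1:**
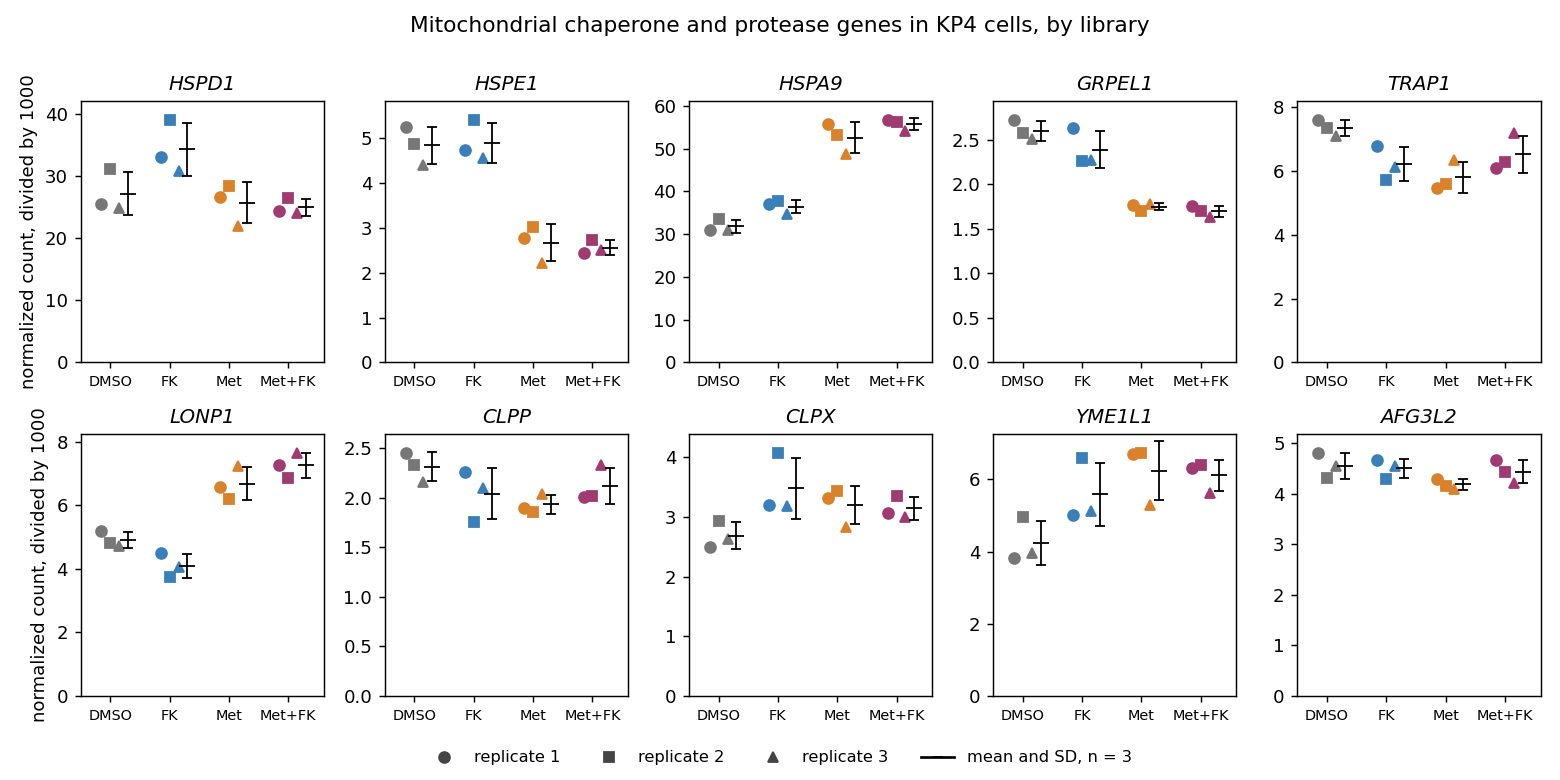
Normalized counts divided by 1000 (vertical axis) of the 10 genes in each of the 12 libraries, by treatment. Symbols are libraries by replicate number and bars the mean and SD of 3 libraries. HSPA9 and LONP1 lie above, and HSPE1 and GRPEL1 below, every DMSO and FK library in all 6 libraries with metformin.

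HSPA9 had the largest rise among the members. In the order of replicates 1 to 3, its normalized counts were 31062, 33511 and 30895 with DMSO, 36938, 37719 and 34676 with FK, 55809, 53126 and 48628 with Met, and 56702, 56246 and 54207 with Met+FK. The Met libraries lay above every DMSO library, and HSPA9 rose by 0.72 on the log2 scale (SE 0.066, adjusted p = 7.29e-07), from 31823 ± 1464 to 52521 ± 3629 (SD, n = 3), a 1.65-fold change. GRPEL1, the exchange factor of the protein that HSPA9 encodes, had counts of 2720.1, 2578 and 2501 with DMSO, 2627, 2264 and 2272 with FK, 1764, 1702 and 1778 with Met, and 1758, 1701 and 1634 with Met+FK. It moved the other way, with the Met libraries below every DMSO library, and fell by 0.57 on the log2 scale (SE 0.077, adjusted p = 2.84e-05). Both calls held when any 1 of the 6 libraries was left out. With the trend of each library on GC content and transcript length removed, HSPA9 rose by 0.50 (adjusted p = 1.88e-06), less than 1.5-fold. GRPEL1 then fell by 0.62 (adjusted p = 1.42e-07), more than 1.5-fold.

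The barrel and its lid parted as well. HSPE1 counts were 5245, 4871 and 4411 with DMSO, 4748, 5411 and 4559 with FK, 2772, 3019.9 and 2219 with Met, and 2439.7, 2741 and 2504 with Met+FK. All Met libraries lay below all DMSO libraries, and HSPE1 fell by 0.87 on the log2 scale (SE 0.11, adjusted p = 1.56e-05), from 4842 ± 418 to 2670.2 ± 410.1 (SD, n = 3), the largest fall among the 10 genes. HSPD1, transcribed from the opposite strand, had counts of 25605, 31117 and 24814 with DMSO, 33076, 39072 and 30830.2 with FK, 26705, 28422 and 22058 with Met, and 24448, 26521 and 24011 with Met+FK. The DMSO and Met libraries overlapped, and the difference (log2 fold change −0.08, SE 0.11, adjusted p = 0.563, 95% confidence interval −0.31 to 0.15) did not pass the test. With the trend of each library on GC content and transcript length removed, HSPD1 fell by 0.23 (adjusted p = 0.00726). The HSPE1 call held under every alternative run.

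TRAP1, the mitochondrial Hsp90, had counts of 7604, 7356 and 7098 with DMSO, 6774, 5724 and 6139 with FK, 5469, 5586 and 6343 with Met, and 6112, 6287 and 7198 with Met+FK. Met libraries lay below all DMSO libraries, and TRAP1 fell by 0.34 on the log2 scale (SE 0.085, adjusted p = 0.00366). The fall was 0.19 with the GC and length trend removed (adjusted p = 0.00425) and 0.22 with libraries scaled to the same total (adjusted p = 0.0295). With Met+FK, replicate 3 reached the DMSO range while the other libraries lay below it.

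Of the proteases, the matrix enzyme LONP1 and the inner membrane enzyme YME1L1 rose with metformin. LONP1 counts were 5202, 4797 and 4708 with DMSO, 4497, 3726 and 4049 with FK, 6587, 6204 and 7236 with Met, and 7272, 6863 and 7631 with Met+FK, and it rose by 0.44 on the log2 scale (SE 0.084, adjusted p = 0.00051). YME1L1 counts were 3827, 4943 and 3953 with DMSO, 5022, 6594 and 5133 with FK, 6699.6, 6720.0 and 5288 with Met, and 6324, 6405 and 5611 with Met+FK, and it rose by 0.56 on the log2 scale (SE 0.12, adjusted p = 0.00184). For both, every Met library exceeded every DMSO library, and both calls held without any 1 library. With the GC and length trend removed, LONP1 rose by 0.60 (adjusted p = 4.12e-08) and YME1L1 by 0.30 (adjusted p = 0.00022). AFG3L2, the other inner membrane protease, had counts of 4796, 4302 and 4542 with DMSO, 4661, 4286 and 4549 with FK, 4296, 4155 and 4099 with Met, and 4659, 4429 and 4202 with Met+FK. Its Met libraries all lay below its DMSO libraries by a small margin, a difference that did not pass the test (log2 fold change −0.12, SE 0.07, adjusted p = 0.165).

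The catalytic subunit CLPP and its unfoldase CLPX did not follow LONP1. CLPP counts were 2448, 2332 and 2158 with DMSO, 2261, 1759.6 and 2099.5 with FK, 1901, 1854 and 2041 with Met, and 2003, 2021 and 2331 with Met+FK. It fell by 0.26 on the log2 scale (SE 0.10, adjusted p = 0.0379), a call lost without DMSO replicate 1 or 2 or Met replicate 1 or 2. The call was also lost with libraries scaled to the same total (adjusted p = 0.228), with TMM scaling, with edgeR (adjusted p = 0.0634) and with the GC and length trend removed (adjusted p = 0.125). CLPX counts were 2489, 2930.2 and 2634 with DMSO, 3194, 4068 and 3181 with FK, 3322, 3439 and 2839.7 with Met, and 3071, 3355 and 3006 with Met+FK. The difference of Met from DMSO missed the threshold (log2 fold change 0.25, SE 0.11, adjusted p = 0.058) and passed it without DMSO replicate 2 or Met replicate 3, with either of those other scalings and with edgeR (adjusted p = 0.0377). With the GC and length trend removed, the log2 fold change of CLPX was 0.0018 (adjusted p = 0.978). That equal-total scaling shifted all genes upwards, their median going from 0.012 to 0.13, and the other 6 calls of this comparison held under it.

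The parting of partner genes was measured directly as a ratio of their normalized counts in the same library, which does not depend on how libraries are scaled. Libraries with and without metformin were compared by a two-sided exact permutation test within the libraries with and without FK866, which can give no p under 0.005. HSPD1 exceeded HSPE1 by a ratio of 4.88, 6.39 and 5.63 with DMSO, 6.97, 7.22 and 6.76 with FK, 9.63, 9.41 and 9.94 with Met and 10.0, 9.68 and 9.59 with Met+FK. All 6 libraries with metformin stood above all 6 without it, a difference of 0.64 on the log2 scale or 1.55-fold (exact p = 0.005, 0.0075 adjusted over 3 pairs). HSPA9 exceeded GRPEL1 by a ratio of 11.4, 13.0 and 12.4 with DMSO, 14.1, 16.7 and 15.3 with FK, 31.6, 31.2 and 27.4 with Met and 32.3, 33.1 and 33.2 with Met+FK. Here too the libraries with metformin were separate from the rest, by 1.20 on the log2 scale or 2.29-fold (exact p = 0.005, 0.0075 adjusted). In all 6 of them HSPA9 lay above, and GRPEL1 below, every library without metformin. That separation and its p were thus fixed by those counts. Both ratios reuse counts tested gene by gene above, so they describe the size of the parting and add no independent evidence. CLPX to CLPP showed no such separation. Its ratio was 1.02, 1.26 and 1.22 with DMSO, 1.41, 2.31 and 1.52 with FK, 1.75, 1.86 and 1.39 with Met and 1.53, 1.66 and 1.29 with Met+FK, with a difference of 0.16 on the log2 scale (exact p = 0.405, 0.405 adjusted). In each of the 3 pairs the FK mean exceeded the DMSO mean, at 6.98 against 5.63, 15.3 against 12.3 and 1.75 against 1.16 for the pairs in the order given, a difference for which no test of the ratio was run. It depends on the GC content of the genes. With the GC and length trend removed, the log2 fold change of FK against DMSO went from 0.37 to 0.092 for CLPX and from −0.19 to −0.021 for CLPP. It went from 0.20 to −0.048 for HSPA9 and from −0.13 to −0.18 for GRPEL1. For HSPD1 it went from 0.34 to 0.16 and for HSPE1 from 0.018 to −0.11.

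**Figure D2:**
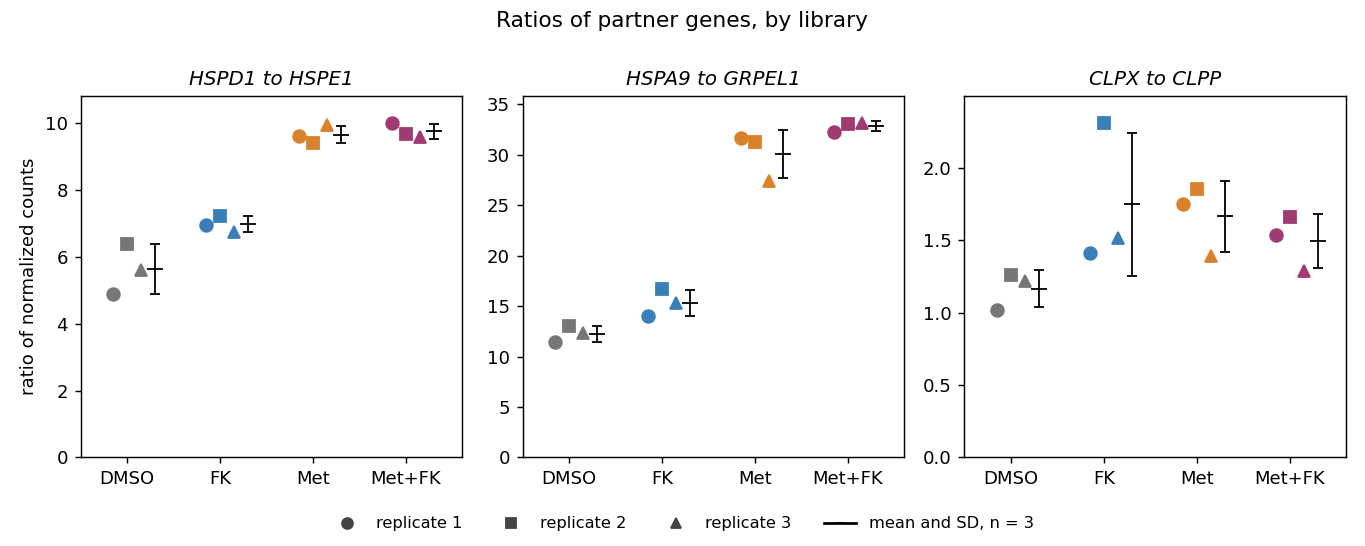
Ratio of normalized counts (vertical axis, linear) of 3 pairs of partner genes in each library, by treatment. Symbols are libraries by replicate number and bars the mean and SD of 3 libraries. The ratios of HSPD1 to HSPE1 and of HSPA9 to GRPEL1 stand higher in all 6 libraries with metformin, and those of CLPX to CLPP overlap.

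The second comparison asked how both drugs together differed from DMSO. It shares its DMSO libraries with the comparison of metformin alone, so the values are given side by side and are not independent. HSPA9 rose by 0.81 on the log2 scale (adjusted p = 1.68e-07), beside 0.72 with Met alone. LONP1 rose by 0.57 (adjusted p = 5.81e-05), beside 0.44, and YME1L1 rose by 0.53 (adjusted p = 0.00231), beside 0.56. HSPE1 fell by 0.92 (adjusted p = 7.07e-06), where it fell by 0.87 with Met, and GRPEL1 fell by 0.61 (adjusted p = 1.20e-05), where it fell by 0.57. These 5 of 10 members were called, against 52.2% of all genes tested, and HSPA9, HSPE1 and GRPEL1 were DEGs, against 25.1% of all genes. TRAP1 (−0.17, adjusted p = 0.101) and CLPP (−0.13, adjusted p = 0.286) did not pass, and neither did CLPX (0.23, adjusted p = 0.0804), HSPD1 (−0.11, adjusted p = 0.396) and AFG3L2 (−0.037, adjusted p = 0.674). TRAP1 passed without Met+FK replicate 3, where its log2 fold change was −0.25. CLPX passed without DMSO replicate 2, with libraries scaled to the same total and with the replicate block (adjusted p = 0.00784). With the GC and length trend removed, CLPX was at 0.023 (adjusted p = 0.701) and HSPD1 fell by 0.23 (adjusted p = 0.00662).

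None of the 10 genes passed the test when FK866 was added to metformin. In Met+FK against Met, 0 of 10 were called by limma-trend, edgeR or DESeq2, and 0 had an unadjusted limma p under 0.05, where limma-trend called 0.0976% of all genes tested and 6.84% had such an unadjusted p. The log2 fold changes lay between −0.05 for HSPE1 and 0.17 for TRAP1, and the libraries of the groups overlapped for every gene. Within same-numbered Met and Met+FK libraries, TRAP1 was higher with both drugs in all 3 pairs, by 0.16, 0.17 and 0.18 on the log2 scale, and HSPA9, LONP1, CLPP and AFG3L2 were also higher in 3 of 3. GRPEL1 was higher in 0 of 3, and HSPD1, HSPE1, CLPX and YME1L1 in 1 of 3. With the replicate block 0 of 10 were called, where 0.780% of all genes were, and the adjusted p of TRAP1 was 0.341. In the fit without the block, the 95% confidence interval for TRAP1 was −0.011 to 0.35, that for HSPA9 −0.053 to 0.23, that for LONP1 −0.057 to 0.30 and that for YME1L1 −0.29 to 0.24, so changes as large as these bounds are not shown to be absent.

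**Figure D3:**
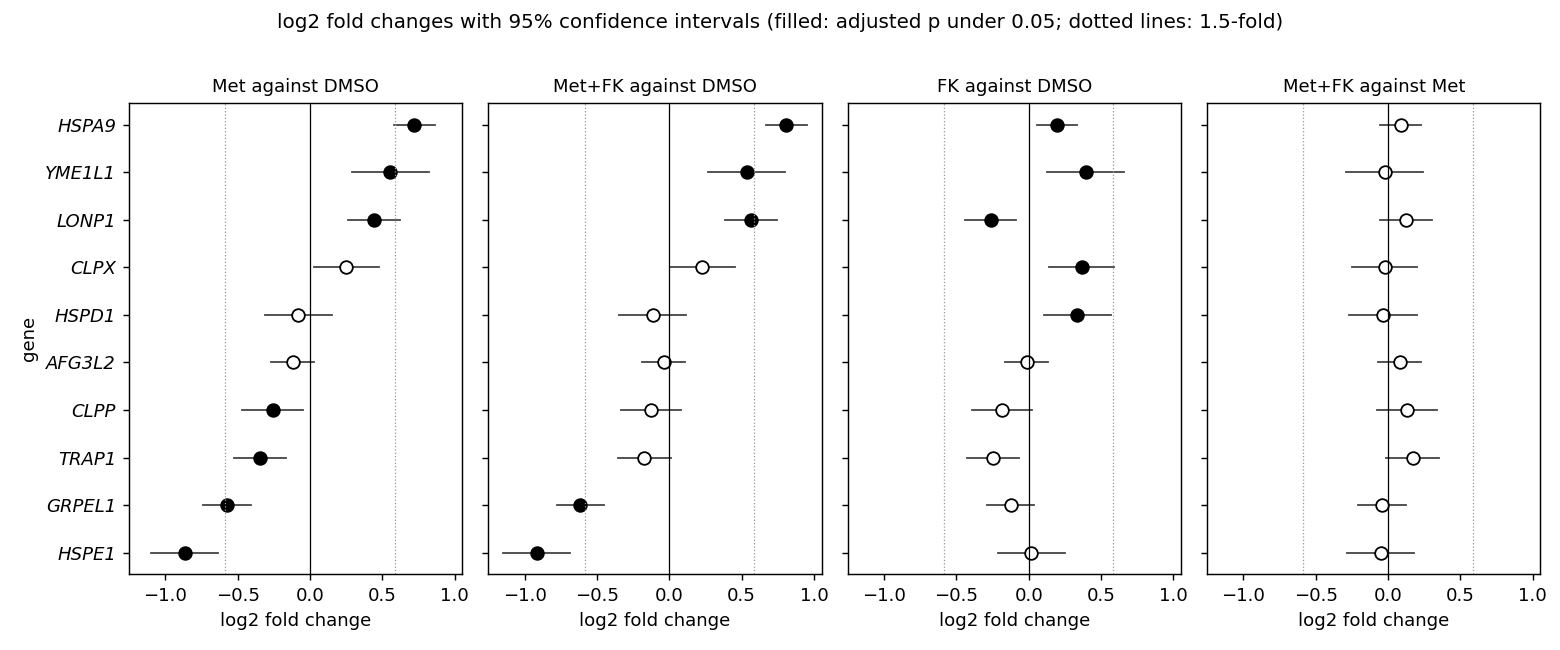
log2 fold changes (horizontal axis) of the 10 genes in 4 comparisons, with 95% confidence intervals from limma-trend. Filled points have an adjusted p under 0.05, and dotted lines mark 1.5-fold. Filled points number 7 in Met against DMSO, 5 in Met+FK against DMSO, 5 in FK against DMSO and 0 in Met+FK against Met.

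Libraries with metformin were also compared with those that received FK866 alone. In Met+FK against FK, LONP1 rose by 0.83 (adjusted p = 2.06e-06) and HSPA9 by 0.61 (adjusted p = 3.67e-06). HSPE1 fell by 0.94 (adjusted p = 7.73e-06), GRPEL1 by 0.49 (adjusted p = 0.000136) and HSPD1 by 0.45 (adjusted p = 0.0039). These were 5 of 10 members, where 42.1% of all genes were called, and 3 were DEGs (LONP1, HSPA9 and HSPE1), where 18.6% of all genes were. In Met against FK, which shares its FK libraries with the last comparison, the called members were also 5, against 36.7% of all genes. They were LONP1 (0.71, adjusted p = 1.32e-05), HSPA9 (0.53, adjusted p = 2.16e-05), HSPE1 (−0.89, adjusted p = 1.80e-05), GRPEL1 (−0.45, adjusted p = 0.000372) and HSPD1 (−0.42, adjusted p = 0.00766), with LONP1 and HSPE1 as DEGs (15.1% of all genes were). In both comparisons every library with metformin lay beyond every FK library for all 5 genes. YME1L1 did not pass there (0.16, adjusted p = 0.336 for Met and 0.14, adjusted p = 0.396 for Met+FK against FK), and passed only with the GC and length trend removed.

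FK866 alone was then compared with DMSO. In this comparison, YME1L1 (log2 fold change 0.39, SE 0.12, adjusted p = 0.0405), CLPX (log2 fold change 0.37, SE 0.11, adjusted p = 0.0316), HSPD1 (log2 fold change 0.34, SE 0.11, adjusted p = 0.0433) and HSPA9 (log2 fold change 0.20, SE 0.066, adjusted p = 0.0475) rose, and LONP1 fell (log2 fold change −0.26, SE 0.084, adjusted p = 0.0408). These are 5 of 10 members, where 21.1% of all genes tested were called. In the 2 directions they are 4 higher, where 11.3% of all genes were, and 1 lower, where 9.84% were. No member changed more than 1.5-fold, and 3.49% of all genes did. For HSPD1, FK replicate 3 at 30830.2 lay below DMSO replicate 2 at 31117, while for the other 4 genes the groups did not overlap. TRAP1 missed the threshold (log2 fold change −0.25, SE 0.085, adjusted p = 0.0521) and GRPEL1 (−0.13, adjusted p = 0.221), CLPP (−0.19, adjusted p = 0.156), HSPE1 (0.018, adjusted p = 0.911) and AFG3L2 (−0.015, adjusted p = 0.888) did not pass either.

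**Figure D4:**
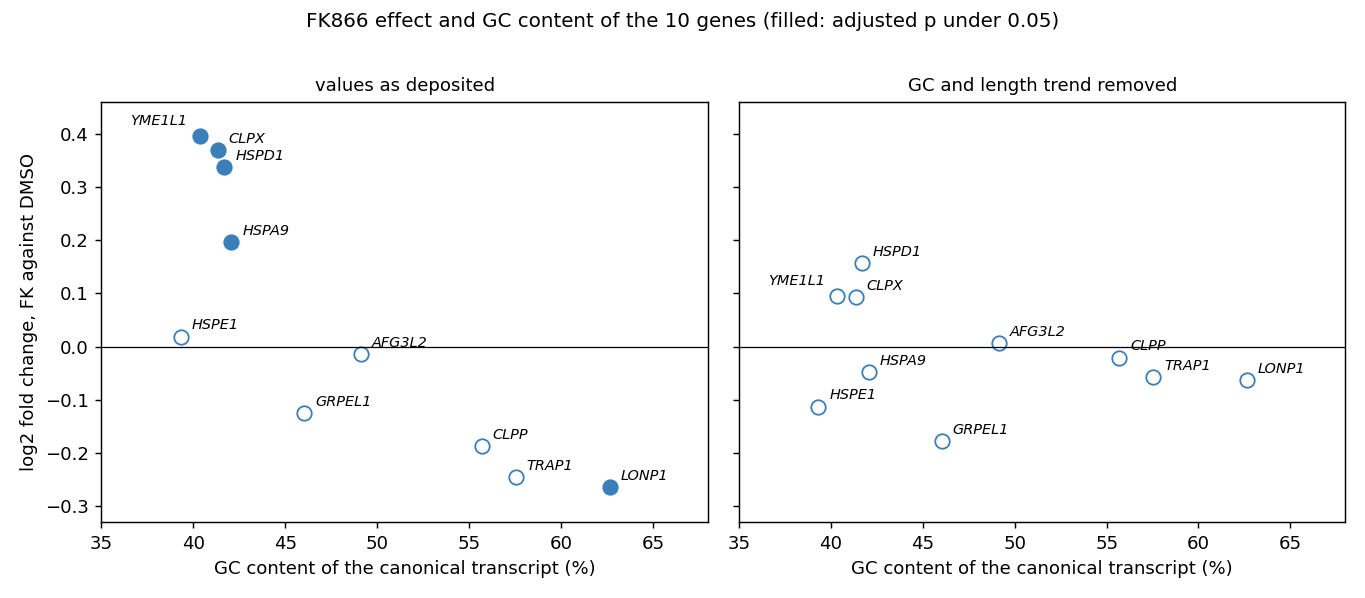
log2 fold change of FK against DMSO (vertical axis) beside the GC content of the canonical transcript in percent (horizontal axis), 1 point per gene, with values as deposited and after the GC and length trend of each library was removed. Filled points have an adjusted p under 0.05. As deposited, 5 points are filled, and after removal 0, with HSPA9 going from 0.20 to −0.048.

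The members called with FK866 alone lay towards either end of the GC range, and their calls were lost without some single libraries. YME1L1, CLPX, HSPD1 and HSPA9 have transcripts of 40.3%, 41.3%, 41.7% and 42.1% GC, and LONP1 one of 62.6%, where the median of the genes tested was 48.5%. HSPE1, the member of lowest GC content (39.3%), and TRAP1 (57.5%) were not called. The slope of a library's log2 values on GC content, per 10 percentage points, was 0.043 to 0.20 with DMSO and −0.25 to 0.0027 with FK, FK replicate 2 being lowest. In the libraries with metformin it was −0.14 to 0.080 with Met and −0.048 to 0.063 with Met+FK. With this trend removed, 0 of the 10 members were called, where 11.1% of all genes were, and HSPA9 changed sign (−0.048, adjusted p = 0.661). The count was also 0 without DMSO replicate 1, DMSO replicate 3 or FK replicate 2, where 0.865%, 2.47% and 1.53% of all genes were called, and 3 without FK replicate 3 (13.8%). HSPA9 lost its call without FK replicate 1 too. The same-numbered DMSO and FK libraries deviated together, and when the replicate number entered the fit as a block 6 members were called, TRAP1 being added (adjusted p = 0.0144), while the share of all genes called went from 21.1% to 44.6%. With both the block and the GC correction 2 were called, HSPD1 (higher, 0.16, adjusted p = 0.0249) and GRPEL1 (lower, −0.18, adjusted p = 0.0194), where 20.4% of all genes were.

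Whether FK866 acted differently with metformin than without it was tested as an interaction, its effect in the presence of metformin minus that in its absence. The values were −0.42 for YME1L1, −0.39 for CLPX, −0.37 for HSPD1, 0.42 for TRAP1, 0.39 for LONP1 and 0.32 for CLPP, and between −0.11 and 0.10 for HSPA9, AFG3L2, GRPEL1 and HSPE1. None of the 10 was called by limma-trend, which called 0.0585% of all genes, or by edgeR. DESeq2 called TRAP1 alone (adjusted p = 0.0494) and 6.20% of the genes it gave an adjusted p. At an unadjusted limma p under 0.05 there were 6 of 10 members, where 30.5% of all genes were. With the replicate block, which called 32.0% of all genes, the 6 genes named first passed, with adjusted p-values of 0.0147 for YME1L1, 0.0111 for CLPX, 0.00901 for HSPD1, 0.0119 for TRAP1, 0.0102 for LONP1 and 0.0492 for CLPP. With the block and the GC correction together, 0 passed, where 6.97% of all genes did. Without FK replicate 1 and with no block, TRAP1 and LONP1 passed, as did 1845 of all 15376 genes.

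Related genes of the mitochondrion were followed in lists that were written with earlier results of these data known. Of 10 other mitochondrial chaperones, 2 rose and 4 fell with metformin, where 24.9% of all genes rose and 25.9% fell, with a median log2 fold change of −0.25 beside 0.012 over all genes. GRPEL2, the paralog of GRPEL1, rose (0.61, adjusted p = 0.000204) while GRPEL1 fell, from 2221 ± 237 to 3389.8 ± 389 normalized counts (SD, n = 3). The other extremes were the AAA ATPase gene AFG1L (0.45, adjusted p = 0.00471), whose call was lost with the GC and length trend removed, the prohibitin gene PHB (−0.64, adjusted p = 1.78e-05) and the disaggregase gene CLPB (−0.51, adjusted p = 0.000194). Of 14 other mitochondrial proteases and peptidases, 5 rose and 4 fell (median −0.10), against those same 24.9% and 25.9% of all genes. IMMP2L, of the inner membrane peptidase (1.05, adjusted p = 2.72e-05), and LACTB, a filament-forming serine protease (0.80, adjusted p = 9.34e-05), were highest. PMPCA, a subunit of the peptidase that removes targeting signals (−0.82, adjusted p = 2.29e-05), and PITRM1, which degrades the removed signals (−0.39, adjusted p = 0.00056), were lowest.

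Genes of mitochondrial protein import moved mostly one way. Of 26, 17 fell with metformin and 0 rose, with a median of −0.34, where 25.9% of all genes fell and 24.9% rose. With TMM scaling 14 were lower and 1 higher (24.0% and 27.1% of all genes), and with libraries scaled to the same total 11 were lower and 4 higher (19.0% and 34.1%). The outer membrane channel gene TOMM40 (−0.94, adjusted p = 1.07e-06) and its small partner TOMM6 (−1.04, adjusted p = 1.81e-07) were lowest. The smallest called falls were those of DNAJC15 (−0.24, adjusted p = 0.0315) and CHCHD4 (−0.21, adjusted p = 0.0302), both lost under either other scaling and without any of several libraries (DMSO replicates 1 and 2, Met replicates 1 and 3). With Met+FK 14 fell and 2 rose, where 26.1% of all genes did each. With FK 8 fell and 1 rose (9.84% and 11.3% of all genes), which became 16 and 3 with the replicate block (21.3% and 23.3%), 5 and 0 with the GC and length trend removed (6.83% and 4.25%) and 9 and 0 with both (12.8% and 7.66%).

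Regulators of the mitochondrial unfolded protein response divided. ATF4, the main effector of the integrated stress response, rose (0.88, adjusted p = 2.61e-07), from 14469 ± 1091 to 26674 ± 700.0 normalized counts (SD, n = 3). DDIT3, which ATF4 induces, rose by 2.82 on the log2 scale (adjusted p = 1.58e-09), from 791 ± 98.9 to 5602 ± 760.2, and CEBPB, a partner of DDIT3, by 0.88 (adjusted p = 7.29e-07). ATF5, the mammalian counterpart of the worm regulator ATFS-1, fell (−0.61, adjusted p = 0.000441), as did HSF1, the heat shock factor (−0.33, adjusted p = 0.0123), and EIF2AK1, the kinase that relays mitochondrial stress to eIF2alpha (−0.22, adjusted p = 0.00543). The call of HSF1 was lost with libraries scaled to the same total and without DMSO replicate 1 or Met replicate 1, and that of EIF2AK1 with that scaling. DELE1, which carries the signal from mitochondria to EIF2AK1 (0.12, adjusted p = 0.22), and the mitochondrial deacetylase gene SIRT3 (0.049, adjusted p = 0.671) did not pass, although DELE1 passed with libraries scaled to the same total. With FK alone, DDIT3 passed (0.39, adjusted p = 0.0458), but not without DMSO replicate 1, 2 or 3 or FK replicate 1 or 2, with all genes of any value above 0 or with only the libraries compared. ATF4 (−0.014, adjusted p = 0.901), CEBPB (0.049, adjusted p = 0.66) and ATF5 (−0.20, adjusted p = 0.183) did not pass. The replicate block added ATF5, HSF1 (−0.28) and SIRT3 (−0.25) as lower, and the GC and length correction added CEBPB as higher.

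Chaperones outside the mitochondrion were measured for comparison. Of 12 cytosolic chaperone genes, 10 were tested, since HSPA1A had a mean of 2.61 normalized counts and its near-identical copy HSPA1B was listed at 0. With metformin 8 of the 10 fell and 0 rose (median −0.69), and 7 fell with either other scaling. Of all genes, 25.9% fell, or 24.0% with TMM scaling and 19.0% with equal totals. BAG3 (−0.89, adjusted p = 4.67e-07) and HSP90AB1 (−0.84, adjusted p = 5.96e-08) were lowest and DNAJA1 (−0.53, adjusted p = 0.000828) and HSPA4 (−0.26, adjusted p = 0.0493) the called genes with the smallest falls. The HSPA4 call was lost under either other scaling, with edgeR and DESeq2, and without DMSO replicate 2 or 3 or Met replicate 1 or 3. Of 12 chaperone genes of the endoplasmic reticulum, 3 rose and 6 fell (median −0.36), where 24.9% of all genes rose and 25.9% fell. HSPA5, the Hsp70 of that compartment (1.33, adjusted p = 5.18e-08), and its co-chaperone DNAJB9 (1.05, adjusted p = 0.000121) rose as HSPA9 did, while CALR (−0.92, adjusted p = 3.41e-07) and SDF2L1 (−1.40, adjusted p = 7.29e-07) fell.

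The profiles of the most abundant chaperone and of the LON protease were also matched against the 11511 genes averaging at least 100 normalized counts, by the root mean square difference of centred log2 values over the 12 libraries, which share their GC slopes. Nearest to HSPD1 were WDR43 (0.044), NUP54 (0.048) and CCT6A (0.049), and the nearest other member was CLPX (0.17). WDR43 averaged 4410.2, 5301, 4071 and 3998 normalized counts with DMSO, FK, Met and Met+FK. Among the nearest to LONP1 were RAB11FIP5 (0.038) and JOSD1 (0.054), and the nearest other member was HSPA9 (0.20). RAB11FIP5 averaged 2164, 1806, 2858 and 3177 in the same order, low with FK and high with metformin as LONP1 was.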

How the data were processed

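RNA-seq was performed on 12 libraries of KP4 cells. The authors used cutadapt for trimming, STAR for alignment to hg38, featureCounts for gene counts and DESeq2 for normalization. The deposited values are a signal, namely counts divided by a size factor per library (0.867 to 1.21), and 100% gave whole read pairs within 0.01. The annotation is not given in the sources used here. Of 36366 genes found in GENCODE 44, 83.6% had the same start and end.

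limma-trend (limma 3.58.1, R 4.3.3) was run as 1 fit of all 12 libraries, on log2 of the normalized count plus 1, for the 15376 genes averaging at least 10, with Benjamini-Hochberg adjustment per comparison. A fold change is on this scale. In counts simulated for Met against DMSO with 200 of 15376 genes changed 2-fold, the test called 158 of them and 7 others. The simulated libraries had no GC slopes and no pairing, and far fewer changed genes. These figures check the procedure and do not give its error rate in the data. Alternatives included pseudocounts of 0.1 and 10, other filters, equal totals and TMM scaling, edgeR 4.0.16 and DESeq2 1.42.0 on the recovered read pairs, a loess correction (span 0.3) for GC content and transcript length, the replicate block, and each library left out. Replicates differed by more than counting noise (chi-square per degree of freedom 5.31 to 46.8).

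Same-numbered libraries were checked for pairing by correlating their deviations from the group means. DMSO with FK gave 0.252, 0.420 and 0.219, and Met with Met+FK gave 0.171, 0.200 and 0.226. All exceeded 0.1, a hint of pairing from the values alone, so the blocked result is given beside the main fit, which has no block, where it changes a call. The GC correction left 0.136, 0.171 and 0.131, and 0.159, 0.0964 and 0.0738.

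The members and the lists were chosen with earlier results of these data known. The text names all members and regulators, the extreme called genes of each other list (2 per direction, by Met against DMSO), and the 3 nearest profiles of HSPD1 and LONP1, of which 1 is not reported here.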

Additional observations from a re-analysis of the deposited data

How the results depend on the processing

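Counts of called members with metformin varied little with the processing. Leaving out 1 library gave 6 to 8 for Met against DMSO, 5 to 6 for Met+FK against DMSO, 5 for Met against FK and for Met+FK against FK, and 0 for Met+FK against Met. FK against DMSO gave 0 to 5, and the interaction 0 to 2. In these runs the share of all genes called went from 42.4% to 51.8% in Met against DMSO. In FK against DMSO that share went from 0.865% to 32.1%. For the interaction, 0 to 1845 of all 15376 genes were called. For FK against DMSO the count of members was 1 with all genes of any value above 0 (6.39% of all genes). It was 0 with only the libraries compared (0.989%). The count was also 0 with the GC and length trend removed, and 2 with that and the replicate block. HSPA9 then stood at −0.048 (adjusted p = 0.661, or 0.534 with the block), a sign opposite to the deposited values. Removal of the GC and length trend with the replicate block gave 8 for Met against FK (55.8% of all genes, 36.7% before). For the interaction, the replicate block gave 6 (32.0% of all genes) and DESeq2 gave 1 (6.20%). With a fold change over 1.5 required as well, the counts were 2 in Met against DMSO, 0 in FK against DMSO, 2 in Met against FK, 3 in Met+FK against DMSO and 3 in Met+FK against FK. The cause of these moves was not tested. Same-numbered Met and DMSO libraries gave correlations of 0.0129, 0.328 and 0.248, the first of them under 0.1, so a pairing there is uncertain. The block made the count of Met against DMSO 8 by adding CLPX, where 60.2% of all genes were called, against 50.9% without it. Apart from the interaction, the block moved no count of called members by over 1.5 times. In FK against DMSO called import genes went from 9 to 19, other mitochondrial chaperones from 3 to 7 and regulators from 1 to 4. The share of all genes called in that comparison went from 21.1% to 44.6%. Ratios of partner genes kept their direction and side of the threshold, at 0.56 to 0.68 for HSPD1 to HSPE1, 1.15 to 1.25 for HSPA9 to GRPEL1 and 0.063 to 0.30 for CLPX to CLPP with 1 library left out. The lowest value of any member was 1634 normalized counts, and precision rests on the spread between 3 libraries per group.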
